A study of Mus musculus with 20 samples.

Results

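The subject is a set of 32 genes of the epidermis and of the junctions that hold epithelial cells together, measured in whole limbs of mouse embryos at embryonic day (E) 13.5. The genes were taken as a named list of known epidermal and junction genes, put together with earlier results of these data known, and all 32 had a probe set among the 19936 genes measured. The study asked which limb genes depend on Lmx1b, a LIM homeodomain transcription factor of the dorsal limb mesenchyme. It compared wild-type 129Sv embryos with Lmx1b -/- embryos of the same background, here called knockout, which the labels describe as loss-of-function mutants. Each of 20 Affymetrix GeneChip 1.0 ST arrays carried RNA from 1 limb. Forelimbs and hindlimbs of each genotype made 4 groups of 5 arrays, each with 3 right and 2 left limbs. The labels number the forelimbs of a genotype as biological replicates 1 to 5 and its hindlimbs as 6 to 10. They do not say whether a forelimb and a hindlimb, or a right and a left limb of the same group, came from the same embryo. The SDs and p-values therefore describe scatter among arrays, part of which may be technical. The p-values treat the 5 arrays of a group as independent. If limbs of a group share an embryo they are not, and the p-values may be too small. The Lmx1b -/- allele acts in the whole embryo, and nothing in the labels restricts it to a limb tissue.

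The limb surface at this stage is an epidermis over a thick core of mesenchyme, cartilage and muscle. The inner layer of the epidermis, the basal layer, expresses Krt5, Krt14 and Krt15 under the transcription factor Trp63, and a flat outer layer, the periderm, expresses Krt17 and simple keratins such as Krt8 and Krt18. Claudins seal the cells, E-cadherin (Cdh1) and desmosomes fasten them, and laminin, integrin and the Fras1 and Frem2 proteins anchor them to the dermis. Lmx1b itself is active in the mesenchyme below, so the 32 genes report on a neighbouring tissue. In RNA from a whole limb, fewer epidermal cells and less RNA per epidermal cell cannot be told apart.

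All values are log2 of the deposited array intensity, so a difference of 1 is 2-fold. Levels are compared between arrays for 1 gene, never between genes, because probes differ in brightness. Differences were tested with limma, and a gene was called past the threshold at a Benjamini-Hochberg adjusted p under 0.05 over all 19936 genes. The labels held where they could be checked. Lmx1b read 6.14 to 6.52 on the 10 wild-type arrays and 5.60 to 6.09 on the 10 knockout arrays, without overlap, although where its probes lie relative to the deleted part is not given in the sources used here. Tbx5, the forelimb factor, read at least 8.26 on every forelimb array and at most 5.09 on every hindlimb array. Lists of other cells also differed between groups. Over both limb types, 4 of 15 skeletal muscle and 2 of 10 macrophage genes passed the threshold as lower in the knockout. So did 2 of 10 endothelial and 2 of 9 melanoblast genes, against 2.04% of all genes called in either direction. In that order 14, 9, 9 and 9 differences were below 0, as were 51.1% of all genes. The Y-linked mean was high on 13 arrays and low on 7, and all 5 wild-type forelimbs were high. In the knockout, forelimb replicates 2, 3 and 4 and hindlimb replicates 8 and 10 were low. Wild-type and knockout forelimbs therefore also differed in the Y-linked mean (7.05 and 4.32). Wild-type hindlimb replicates 7 and 8 were low (2.52 and 2.55), so they did not share an embryo with a wild-type forelimb.

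The promoters of 16 of the 32 genes, with 19 start sites, had an entry in the RefSeq promoter table for mouse build GRCm38.p6. They are shown to mark where a short sequence does and does not occur among these genes. Its bearing on their levels was not tested. The sequence CACCTG, an E-box that repressors of epithelial genes such as Snai1, Zeb1 and Zeb2 can bind, was searched on both strands in the 250 bases before each start. It was present at 12 of 19 start sites, belonging to 12 genes, against 16.9% of the 21263 promoters of protein-coding genes. Within the last 100 bases before the start it was present at 9 of 19, against 6.66%. The genes with a match in the 250 bases were Ap1m2, Cldn4, Cldn6, Cldn7, Epcam, Grhl3, Krt18, Krt5, Krt8, Lamb3, Rab25 and Sfn. The last 100 bases before the start of 8 genes follow, 5′ to 3′ on the gene's own strand, with CACCTG or its reverse complement CAGGTG in capitals.
Ap1m2 (chr9:21312334-21312433, minus strand): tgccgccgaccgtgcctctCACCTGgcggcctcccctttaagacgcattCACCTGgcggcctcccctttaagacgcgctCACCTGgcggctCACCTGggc
Rab25 (chr3:88548280-88548379, minus strand): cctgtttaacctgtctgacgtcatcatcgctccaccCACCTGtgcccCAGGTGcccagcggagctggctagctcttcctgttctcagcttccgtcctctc
Cldn7 (chr11:69965321-69965420, plus strand): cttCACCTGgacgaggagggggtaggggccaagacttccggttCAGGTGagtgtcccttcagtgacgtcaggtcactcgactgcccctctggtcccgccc
Grhl3 (chr4:135573633-135573732, minus strand): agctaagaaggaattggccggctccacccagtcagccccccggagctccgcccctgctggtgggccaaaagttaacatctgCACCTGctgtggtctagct
Epcam (chr17:87635879-87635978, plus strand): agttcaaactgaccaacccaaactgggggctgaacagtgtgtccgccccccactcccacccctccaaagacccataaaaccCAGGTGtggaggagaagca
Cldn4 (chr5:134946935-134947034, minus strand): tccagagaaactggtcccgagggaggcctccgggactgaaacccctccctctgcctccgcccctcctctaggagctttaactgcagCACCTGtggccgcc
Sfn (chr4:133602169-133602268, minus strand): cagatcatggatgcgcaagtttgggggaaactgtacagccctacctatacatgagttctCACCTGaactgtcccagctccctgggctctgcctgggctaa
Krt14 (chr11:100206031-100206130, minus strand): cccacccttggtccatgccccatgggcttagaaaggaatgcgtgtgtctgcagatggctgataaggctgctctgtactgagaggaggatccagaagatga
Ap1m2 had 4 matches in this stretch, Rab25 and Cldn7 had 2 each, Grhl3, Epcam, Cldn4 and Sfn had 1 each, and Krt14 had none. Cldn7 has another start site, not shown (chr11:69964679-69964778), and it had no match. The stretches shown are mostly ones with a match, whereas 9 of 19 start sites had one. Other motifs were not shared in this way. The TATA box TATAAA was at none of the 19 start sites, against 11.6% of protein-coding promoters in the same 250 bases. The AP-2 site GCCNNNGGC was at 2 (Dsp and Krt18), against 16.3%, and the grainyhead site AACCGGTT was at none, against 0.141%. A match is a run of letters and does not show that a factor was bound.

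The mean of the 32 genes ranged more widely over limbs of the same kind than it differed between kinds of limb. This did not hold for every gene. Krt15, Krt5, Krt18 and Cldn7 differed between limb types by more than their own pooled within-group SD in both genotypes. The mean level of the 32 genes per array was 6.64 ± 0.204 (SD, n = 5) in wild-type forelimbs, 6.55 ± 0.279 in knockout forelimbs, 6.43 ± 0.153 in wild-type hindlimbs and 6.42 ± 0.361 in knockout hindlimbs. The 2 extreme arrays of all 20 were both knockout hindlimbs, replicate 6 at 7.02 and replicate 9 at 6.08, which is 1.92-fold apart. The ranges of all 4 groups overlapped. The mean over the genes was 0.05 lower in the knockout over both limb types, 0.08 lower in forelimbs and 0.02 lower in hindlimbs, against a pooled within-group SD of 0.261. Hindlimbs were 0.21 lower than forelimbs in wild type and 0.14 lower in the knockout, also less than that SD. Single knockout arrays moved these values. Without knockout hindlimb replicate 6 the hindlimb genotype difference was -0.17 and the knockout limb-type difference -0.29. Without knockout hindlimb replicate 9 they were 0.07 and -0.06. Without knockout forelimb replicate 4 the forelimb genotype difference was 0.02 and the knockout limb-type difference -0.24, and without knockout forelimb replicate 3 they were -0.17 and -0.05. The wild-type limb-type difference moved by less than 1.5 times whichever array was left out. These means carry no p, because the list was assembled with earlier results of these data known.

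**Figure D1:**
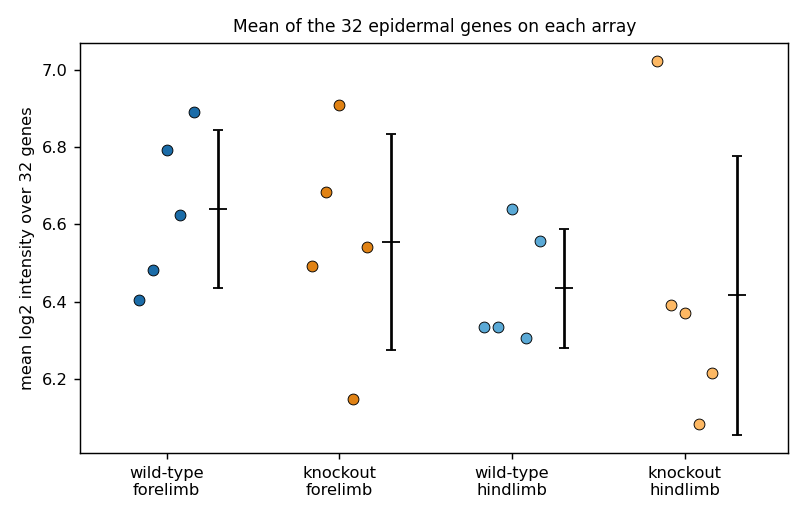
Mean log2 intensity over the 32 epidermal genes (vertical axis) on each of the 20 arrays, by group, with the group mean and SD (n = 5) as a bar to the right of the points. All 4 groups overlap, and the highest (7.02) and lowest (6.08) arrays are both knockout hindlimbs.

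On most arrays the genes moved as a block. On knockout hindlimb replicate 6, 32 of 32 genes were above their group mean, and on knockout hindlimb replicate 9 only 1 was. Wild-type hindlimb replicate 8 had 31 above, wild-type forelimb replicate 5 and knockout forelimb replicate 3 had 30 each, wild-type forelimb replicate 2 had 1 and knockout forelimb replicate 4 had 2. Over all 19936 genes the share above the group mean on an array lay between 42.4% and 55.9%. After each group's mean was taken away, all 496 pairs of the 32 genes had a correlation above 0 over the 20 arrays, with a median Pearson r of 0.774 and a median Spearman rho of 0.728. The points share their arrays and their normalization, so these are descriptions. Without the 2 arrays farthest from the median, knockout forelimb replicate 3 and knockout hindlimb replicate 6, the median r was 0.672. These 2 were picked by their mean of the 32 genes before group means were taken away. Knockout forelimb replicate 4 stayed in, although it lay farther from its group mean (-0.41) than replicate 3 did (0.35).

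**Figure D2:**
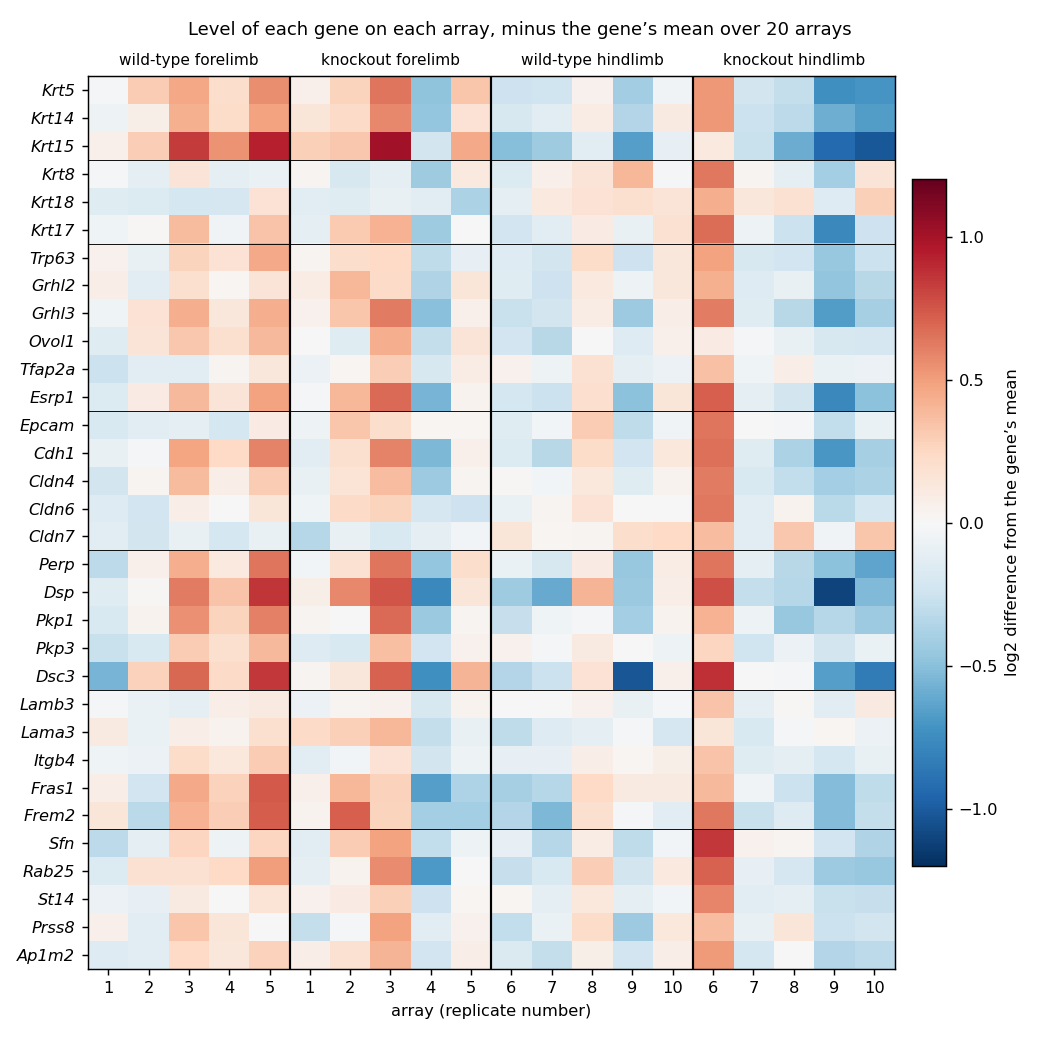
Level of each of the 32 genes (rows, ordered by role) on each of the 20 arrays (columns, grouped, with replicate numbers), as the log2 difference from that gene's mean over all arrays. Whole columns are red (knockout hindlimb replicate 6) or blue (knockout hindlimb replicate 9), while the Krt15 row is red in forelimbs and the Krt18 and Cldn7 rows are mostly pale or blue there.

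The match extended to epithelial genes outside the 32. Of 56 other epithelial genes, 33 followed the per-array mean of the 32 with r above 0.7, as did 518 of all 19904 other genes, which is 2.6%. The fractions were 10 of 24 genes of the apical ridge and limb ectoderm, 5 of 24 genes of the differentiating epidermal layers, 7 of 13 genes of the Fraser complex and its dermal partners (of which Fras1 and Frem2 are among the 32), 0 of 15 skeletal muscle genes and 0 of 12 cartilage genes. The genes closest to the mean, picked after their values were seen, were Jup, the plakoglobin of desmosomes and adherens junctions (r = 0.97), the actin-binding Nebl (0.97), the desmosomal cadherin Dsc2 (0.96) and the protease inhibitor Spint2 (0.96). Among the lists of other cell types, the macrophage mean followed the mean of the 32 genes most closely (r = 0.61, 1 of 10 genes above 0.7), then the endothelial (0.41), melanoblast (0.39) and skeletal muscle (0.36) means. The mean of the cartilage genes ran the other way (r = -0.51), and in 3 of 4 groups the array with the highest mean of the 32 genes had the lowest cartilage mean. The part of these cell types in the spread was not tested. Of the periderm markers outside the 32, Krt6a read 3.55 to 4.09 over the 20 arrays, Krt13 read 3.76 to 4.65 and Krt4 read 3.62 to 5.02.

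Spread between arrays of a group was wider for these genes than for most. Their median pooled within-group SD was 0.276, against 0.135 over all genes and 0.115 over genes with a mean level of at least 5. Of the 32, 31 lay above the median of all genes and 25 in the widest 10%. The widest were the desmosomal cadherin Dsc3 (0.562), desmoplakin Dsp (0.541) and the splicing factor Esrp1 (0.414), and the narrowest were the laminin chain Lamb3 (0.122), Cldn7 (0.144) and Krt18 (0.160). Mean levels of Lamb3, Lama3 and Ovol1 were below 5, where array values are compressed towards the background.

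No gene of the 32 passed the threshold for genotype. Over both limb types 0 of 32 were called, against 2.04% of all genes. In forelimbs 0 were called, against 1.27%, and in hindlimbs 0, against 0.231%. The test of a genotype effect that differs between limb types called 0, against 0.0201%. The unadjusted limma p was under 0.05 for 0 of 32 in each of these comparisons, against 14.7%, 13.2%, 5.75% and 3.63% of all genes. Wild-type and knockout arrays overlapped for 32 of 32 genes in forelimbs, where 2.53% of all genes did not overlap, and for 32 of 32 in hindlimbs, where 1.49% did not. Over both limb types the differences ran from -0.21 (Fras1) to 0.15 (Epcam), 21 of 32 below 0, where 51.1% of all genes were below 0. The median was -0.07, against -0.0021 for all genes. Because the 32 genes moved together over arrays, their signs are not separate results. Every 95% interval held 0, and their outer bounds were -0.58 (Dsp) and 0.44 (Dsc3). The median distance from a difference to its bound was 0.23.

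**Figure D3:**
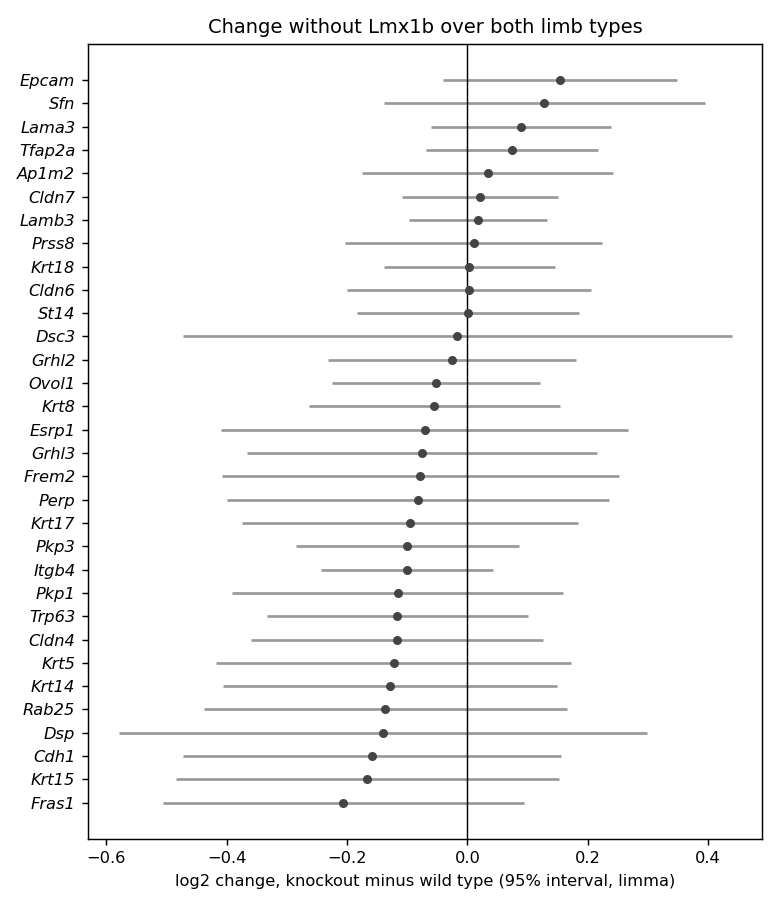
Difference in log2 intensity between knockout and wild type over both limb types (horizontal axis) for each of the 32 genes, with 95% intervals from limma (10 arrays a genotype). All intervals cross 0, and the widest belong to Dsc3 and Dsp.

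For limb type, 1 gene passed the threshold, and only in wild type. Krt15, a type I keratin of the basal layer, was 1.86-fold lower in wild-type hindlimbs than in wild-type forelimbs (log2 difference -0.90, SE 0.217, limma adjusted p = 0.0237), and it was the 1 of 32 called, against 3.26% of all genes. In the knockout the difference was of the same size (-0.91, SE 0.217) with an adjusted p of 0.0584 in limma, and 0 of 32 were called, against 0.617%. The limb-type difference of Krt15 differed between genotypes by -0.012 (95% interval -0.65 to 0.62). Most of the other genes were also lower in hindlimbs without passing. In wild type 26 of 32 differences were below 0 (median -0.20), where 44.3% of all genes were. In the knockout 25 of 32 were below 0 (median -0.13), where 48.4% of all genes were. The 32 genes moved together over the arrays of a group (median r 0.774), so these counts are not 32 separate results. The unadjusted p was under 0.05 for 7 genes in wild type (16.5% of all genes) and 5 in the knockout (9.85%). In wild type, Krt15 and Cldn7 were the genes whose limb types did not overlap, Krt15 lower and Cldn7 higher in hindlimbs, against 4.98% of all genes. In the knockout no gene of the 32 had limb types that did not overlap, against 1.73%. Skeletal muscle genes moved with the same contrast. In wild type 15 of 15 passed as lower in hindlimbs, against 3.26% of all genes called. Their array mean was 6.98 to 7.48 there and 7.75 to 8.22 in forelimbs. In the knockout 15 of 15 differences were below 0 and 2 of 15 passed, against 0.617% of all genes. Their array mean was 7.06 to 7.48 in knockout hindlimbs and 7.39 to 7.80 in knockout forelimbs. The part of muscle in the limb-type differences was not tested.

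**Figure D4:**
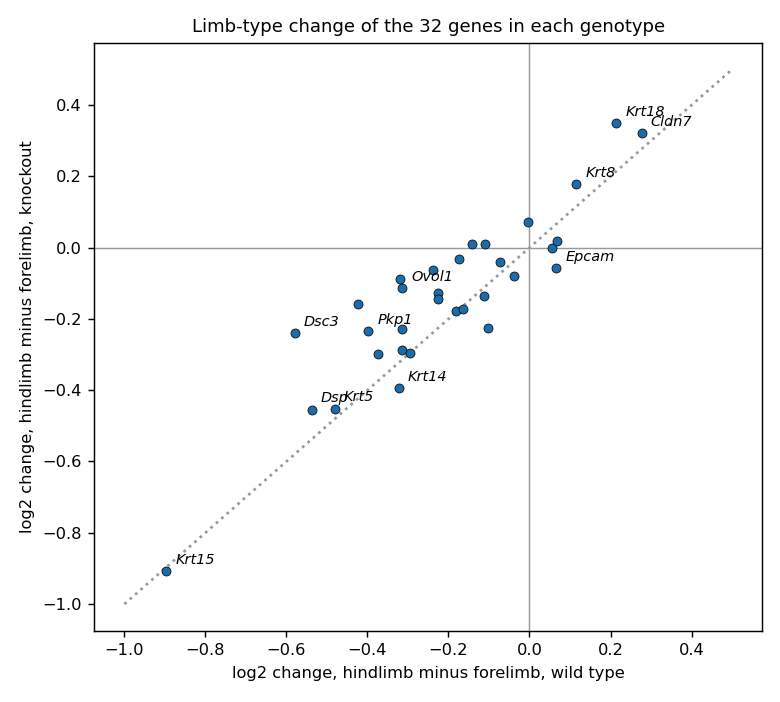
Difference in log2 intensity between hindlimb and forelimb for each of the 32 genes, in wild type (horizontal axis) and in the knockout (vertical axis), with the line of equal difference dotted. Krt15 lies apart at -0.90 and -0.91, and Krt18, Cldn7, Krt8 and, nearer to 0, Tfap2a lie above 0 on both axes. The axes share no arrays.

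The 3 basal keratins come first. Krt5 and Krt14 pair to form the filaments of basal cells, and Krt15 is a further type I keratin of that layer. Values are given in the order of replicates 1 to 5 for forelimbs and 6 to 10 for hindlimbs. Krt15 read 7.47, 7.70, 8.25, 7.94 and 8.34 in wild-type forelimbs and 6.90, 6.98, 7.27, 6.75 and 7.31 in wild-type hindlimbs. Without Lmx1b, Krt15 read 7.70, 7.73, 8.42, 7.19 and 7.86 in forelimbs and 7.53, 7.14, 6.82, 6.48 and 6.39 in hindlimbs. All 5 wild-type hindlimbs lay below all 5 wild-type forelimbs, and in the knockout only replicate 4 of the forelimbs (7.19) reached into the range of the hindlimbs, whose highest was replicate 6 (7.53). Krt5 read 9.93, 10.26, 10.42, 10.16 and 10.51 in wild-type forelimbs and 9.70, 9.71, 10.01, 9.53 and 9.91 in wild-type hindlimbs. Without Lmx1b, Krt5 read 10.02, 10.22, 10.59, 9.47 and 10.29 in forelimbs and 10.47, 9.73, 9.67, 9.22 and 9.24 in hindlimbs. The Krt5 ranges of the limb types overlapped in both genotypes, and knockout hindlimb replicates 9 and 10 were the lowest of all arrays. Its hindlimb-to-forelimb difference was -0.48 (SE 0.201, limma adjusted p = 0.222) in wild type and -0.45 (SE 0.201, adjusted p = 0.461) in the knockout. Krt14 had differences of -0.32 and -0.39 (limma adjusted p = 0.418 and 0.504). Krt5 and Krt14, the obligate partners, were each other's nearest match among the 32 genes within groups (r = 0.98 over 20 arrays, 0.96 without the 2 farthest). Krt15, Krt14 and Krt17 lie in the type I keratin cluster on chromosome 11, in the order Krt13, Krt15, Krt19, Krt9, Krt14, Krt16, Krt17 among the measured genes. No other gene of those 7 passed the threshold for limb type: the neighbours Krt13 and Krt19 differed by 0.01 and -0.31 in wild type (limma adjusted p = 0.985 and 0.592).

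Set against the mean of the other 31 genes on the same array, Krt15 separated the limb types in both genotypes. In wild-type forelimbs that difference was 1.34 ± 0.171 (SD, n = 5), and in wild-type hindlimbs it was 0.63 ± 0.117. In the knockout it was 1.26 ± 0.203 in forelimbs and 0.47 ± 0.212 in hindlimbs. The lowest of the 10 forelimbs was 1.08 and the highest of the 10 hindlimbs 0.78. Krt5 on this scale was 0.28 lower in wild-type hindlimbs and 0.32 lower in knockout hindlimbs, without overlap in wild type. Krt18 was 0.43 higher in wild-type hindlimbs, also without overlap, and 0.50 higher in knockout hindlimbs, with overlap. The share of all genes that separate the limb types on this scale was not computed. The shares given above are for levels. When the mean of the 56 other epithelial genes on each array was added to the limma fit as a covariate, an alternative chosen after the data were seen, Krt15 was lower in hindlimbs by 0.59 in wild type (SE 0.0797, adjusted p = 0.000227), where 2.15% of all genes were called. In the knockout it was lower by 0.80 (SE 0.0764, adjusted p = 2.27e-06), and 3 further genes passed: Krt5 (-0.35, adjusted p = 0.0301), Krt14 (-0.30, adjusted p = 0.0371) and Krt18 (0.38, adjusted p = 0.0371), against 0.793% of all genes. Without the covariate the call of Krt15 in wild type held in 14 of 20 fits that left out 1 array. It was lost without wild-type forelimb replicate 3, 4 or 5 or wild-type hindlimb replicate 6, 7 or 9, with adjusted p up to 0.0837. It was also lost with the Y-linked mean as a covariate (-0.85, adjusted p = 0.0566).

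In the knockout, leaving out 1 array brought a gene past the threshold in 5 of 20 limma fits. Krt15 passed without wild-type forelimb replicate 1 (adjusted p = 0.0489), knockout forelimb replicate 4 (0.0204) or knockout hindlimb replicate 6 (0.0171). Cldn7 passed without knockout hindlimb replicate 7 (0.40 higher in hindlimbs, adjusted p = 0.0275), and Krt18 without knockout hindlimb replicate 9 (0.43 higher, adjusted p = 0.0309).

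**Figure D5:**
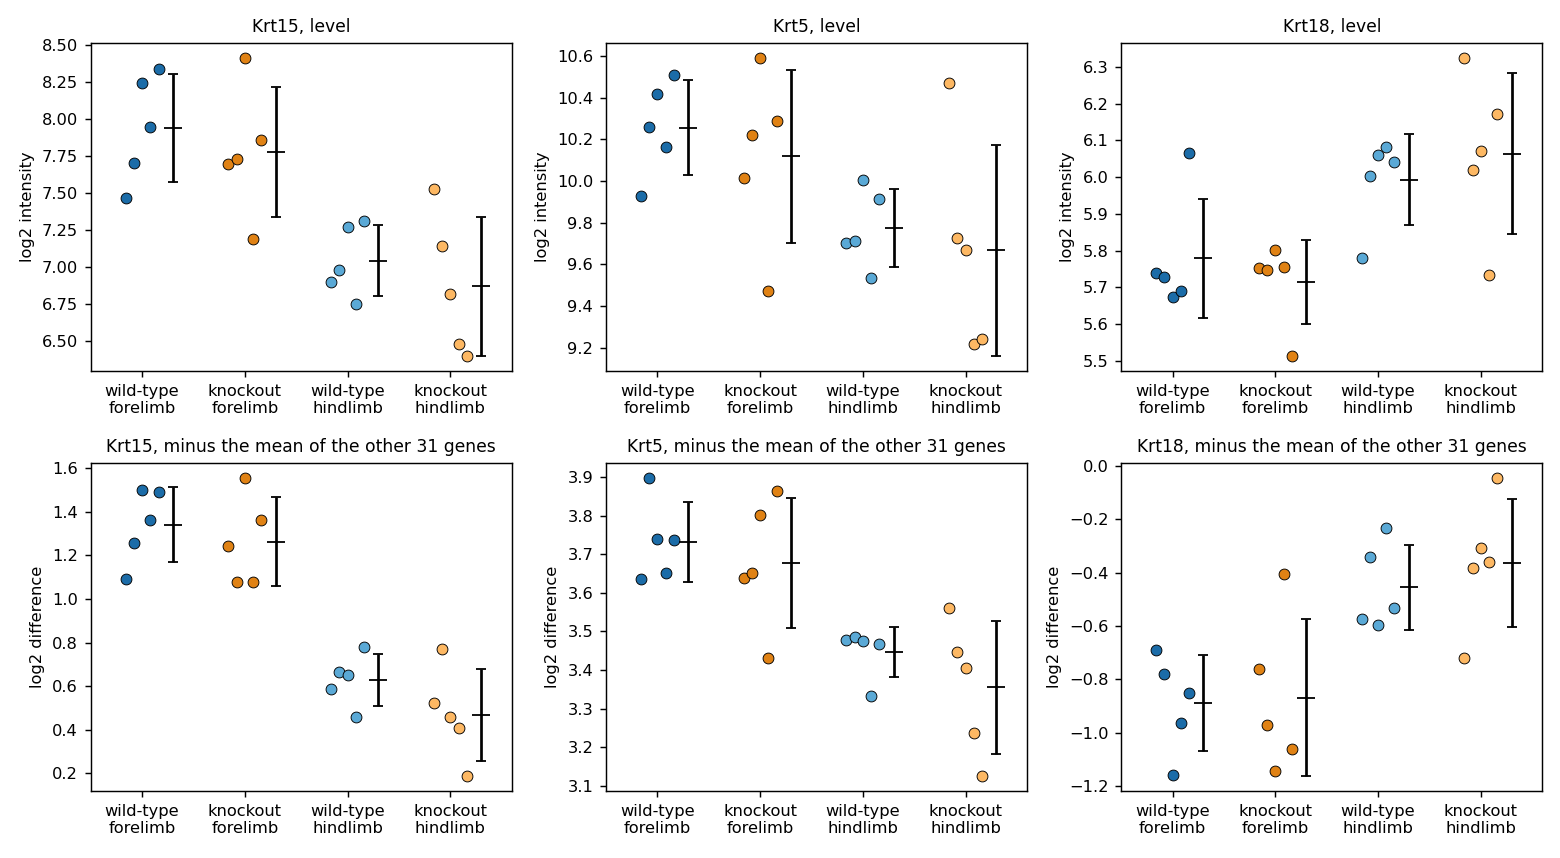
Krt15, Krt5 and Krt18 on each of the 20 arrays, as log2 intensity (top row) and as the log2 difference from the mean of the other 31 genes on the same array (bottom row), with group means and SDs (n = 5). In the bottom row every hindlimb lies below every forelimb for Krt15 (at most 0.78 against at least 1.08), and Krt18 runs the other way with overlap in the knockout.

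Of the simple and periderm keratins, Krt8 and Krt18 read higher in hindlimbs in the mean and Krt17 lower, and none of the 3 passed. Krt8 and Krt18 pair in the filaments of simple epithelia and periderm, and Krt17 marks periderm and activated keratinocytes. Krt18 read 5.74, 5.73, 5.67, 5.69 and 6.06 in wild-type forelimbs and 5.78, 6.002, 6.06, 6.08 and 6.04 in wild-type hindlimbs. Without Lmx1b, Krt18 read 5.75, 5.75, 5.80, 5.76 and 5.51 in forelimbs and 6.33, 6.02, 6.07, 5.73 and 6.17 in hindlimbs. In the knockout, 4 of 5 hindlimbs were above all forelimbs and replicate 9 (5.73) was not, and in wild type the forelimb replicate 5 (6.06) lay among the hindlimbs. The hindlimb-to-forelimb difference was 0.21 (SE 0.0963, limma adjusted p = 0.264) in wild type and 0.35 (SE 0.0963, adjusted p = 0.128) in the knockout, where the unadjusted p was 0.00151. Krt8 read 6.63, 6.55, 6.81, 6.54 and 6.58 in wild-type forelimbs and 6.49, 6.71, 6.80, 7.05 and 6.63 in wild-type hindlimbs. Without Lmx1b, Krt8 read 6.68, 6.46, 6.53, 6.23 and 6.77 in forelimbs and 7.29, 6.68, 6.54, 6.24 and 6.81 in hindlimbs. Krt8 overlapped between all groups and was highest on knockout hindlimb replicate 6 (7.29) and wild-type hindlimb replicate 9 (7.05). Its difference was 0.12 in wild type and 0.18 in the knockout (limma adjusted p = 0.743 and 0.754). Krt8 and Krt18 followed each other less closely than Krt5 and Krt14 (r = 0.50 over 20 arrays, against 0.98). Krt17 was lower in hindlimbs by 0.17 in both genotypes (limma adjusted p = 0.724 and 0.842), between 5.71 on knockout hindlimb replicate 9 and 7.15 on knockout hindlimb replicate 6.

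Among the regulators, Trp63 drives the basal state, Grhl2, Grhl3 and Ovol1 drive barrier formation and keep the epithelial state, Tfap2a (AP-2 alpha) acts in surface ectoderm, and Esrp1 sets epithelial splice forms. Esrp1 read 7.003, 7.27, 7.56, 7.33 and 7.66 in wild-type forelimbs and 6.96, 6.91, 7.38, 6.68 and 7.32 in wild-type hindlimbs. Without Lmx1b, Esrp1 read 7.15, 7.57, 7.85, 6.61 and 7.22 in forelimbs and 7.88, 7.05, 6.95, 6.39 and 6.68 in hindlimbs. The highest array was knockout hindlimb replicate 6 and the lowest knockout hindlimb replicate 9, 2.81-fold apart within 1 group. Grhl3 ranged from 6.39 on that same low array to 7.68 on knockout forelimb replicate 3, and was the nearest match of Esrp1 among the 32 genes (r = 0.99). Trp63 ranged from 6.36 to 7.30 and Grhl2 from 5.03 to 5.93, both with knockout hindlimb replicates 9 and 6 at the ends. Tfap2a was narrower, from 5.69 to 6.30, and Ovol1 ranged from 4.42 to 5.18. Of these 6 genes, 5 were lower in wild-type hindlimbs than in wild-type forelimbs, Ovol1 by 0.31 (SE 0.118, unadjusted p = 0.0142, limma adjusted p = 0.165), and Tfap2a was 0.07 higher. Genotype differences over both limb types lay between -0.12 (Trp63) and 0.07 (Tfap2a).

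None of the 5 adherens and tight junction genes passed for limb type or genotype. Cdh1 is the cadherin of adherens junctions, Epcam is an adhesion protein that binds Cldn7, and Cldn4, Cldn6 and Cldn7 are tight junction claudins. Cldn4 read 7.30, 7.55, 7.90, 7.59 and 7.82 in wild-type forelimbs and 7.53, 7.49, 7.64, 7.37 and 7.56 in wild-type hindlimbs. Without Lmx1b, Cldn4 read 7.42, 7.68, 7.89, 7.08 and 7.55 in forelimbs and 8.14, 7.33, 7.22, 7.11 and 7.14 in hindlimbs. Knockout hindlimb replicate 6 (8.14) stood above the other 19 arrays, and the groups overlapped. Cldn7 read 5.23, 5.14, 5.27, 5.16 and 5.28 in wild-type forelimbs and 5.51, 5.39, 5.39, 5.57 and 5.60 in wild-type hindlimbs. Without Lmx1b, Cldn7 read 5.02, 5.28, 5.18, 5.26 and 5.33 in forelimbs and 5.73, 5.24, 5.69, 5.32 and 5.70 in hindlimbs. Every wild-type hindlimb was above every wild-type forelimb, by 0.28 in the mean (SE 0.0886, limma adjusted p = 0.0938), and in the knockout the mean difference was 0.32 (SE 0.0886, adjusted p = 0.128) with 3 of 5 hindlimbs above all forelimbs. Cldn7 followed the other 31 genes least (r = 0.27). Epcam read 7.18, 7.22, 7.24, 7.15 and 7.45 in wild-type forelimbs and 7.22, 7.33, 7.66, 7.05 and 7.32 in wild-type hindlimbs. Without Lmx1b, Epcam read 7.30, 7.69, 7.57, 7.38 and 7.38 in forelimbs and 7.997, 7.35, 7.34, 7.06 and 7.28 in hindlimbs. Epcam had the smallest genotype p of the 32, with 0.15 more in the knockout over both limb types (SE 0.0936, unadjusted p = 0.116, limma adjusted p = 0.471), and the groups overlapped. Cdh1 followed the rest most closely of all 32 (r = 0.99), between 6.02 on knockout hindlimb replicate 9 and 7.38 on knockout hindlimb replicate 6. Its differences of -0.16 for genotype and -0.31 and -0.23 for limb type did not pass (limma adjusted p = 0.683, 0.498 and 0.803). Cldn6 ranged from 6.65 to 7.60, with a genotype difference of 0.0028.

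The desmosome genes included the 2 with the widest spread, Dsc3 and Dsp, and also Pkp3, whose pooled SD of 0.218 was below the median of the 32. Perp is a Trp63 target needed for desmosomes, Dsp links desmosomes to keratin, Pkp1 and Pkp3 are plakophilins of the plaque, and Dsc3 is a desmosomal cadherin. Dsc3 read 5.93, 6.77, 7.17, 6.71 and 7.34 in wild-type forelimbs and 6.13, 6.23, 6.66, 5.46 and 6.55 in wild-type hindlimbs. Without Lmx1b, Dsc3 read 6.52, 6.62, 7.20, 5.75 and 6.90 in forelimbs and 7.36, 6.48, 6.48, 5.83 and 5.65 in hindlimbs. Wild-type hindlimb replicate 9 (5.46) was the lowest array and knockout hindlimb replicate 6 (7.36) the highest, 3.73-fold apart, and replicate 1 of the wild-type forelimbs (5.93) lay far below the other 4. Dsp read 7.25, 7.41, 8.01, 7.74 and 8.25 in wild-type forelimbs and 6.97, 6.78, 7.80, 6.95 and 7.47 in wild-type hindlimbs. Without Lmx1b, Dsp read 7.46, 7.97, 8.15, 6.62 and 7.54 in forelimbs and 8.17, 7.11, 7.05, 6.28 and 6.86 in hindlimbs. Knockout hindlimbs alone spanned 6.28 to 8.17, almost the whole range of the gene, and the groups overlapped. Perp read 7.89, 8.26, 8.63, 8.32 and 8.84 in wild-type forelimbs and 8.12, 8.01, 8.30, 7.74 and 8.29 in wild-type hindlimbs. Without Lmx1b, Perp read 8.16, 8.38, 8.84, 7.74 and 8.41 in forelimbs and 8.84, 8.08, 7.86, 7.70 and 7.57 in hindlimbs. Perp reached 8.84 in wild-type forelimbs, knockout forelimbs and knockout hindlimbs alike, and its 4 groups overlapped. All 5 genes were lower in hindlimbs in both genotypes, by 0.07 (Pkp3) to 0.58 (Dsc3) in wild type and by 0.04 (Pkp3) to 0.45 (Dsp) in the knockout, and 0 of 5 passed (smallest limma adjusted p = 0.291, Pkp1 in wild type). All 5 were also lower in the knockout over both limb types, by 0.02 to 0.14, each within its interval around 0.

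The genes of the basement membrane and its anchors varied less, except for Fras1 and Frem2. Lama3 and Lamb3 are chains of laminin-332, Itgb4 is the integrin of hemidesmosomes, and Fras1 and Frem2 form the Fraser complex, which holds embryonic epidermis to dermis. Lamb3 read 4.95, 4.89, 4.86, 5.05 and 5.08 in wild-type forelimbs and 4.97, 4.97, 5.03, 4.89 and 4.96 in wild-type hindlimbs. Without Lmx1b, Lamb3 read 4.91, 5.01, 5.03, 4.78 and 5.02 in forelimbs and 5.31, 4.86, 4.99, 4.85 and 5.08 in hindlimbs. Knockout hindlimb replicate 6 (5.31) was highest, and the other 19 arrays lay between 4.78 and 5.08. Itgb4 read 5.43, 5.41, 5.70, 5.61 and 5.79 in wild-type forelimbs and 5.38, 5.38, 5.56, 5.50 and 5.55 in wild-type hindlimbs. Without Lmx1b, Itgb4 read 5.35, 5.45, 5.65, 5.26 and 5.42 in forelimbs and 5.82, 5.34, 5.36, 5.27 and 5.39 in hindlimbs. Knockout hindlimb replicate 6 (5.82) and wild-type forelimb replicate 5 (5.79) were highest, and the genotype difference was -0.10 (SE 0.0689, unadjusted p = 0.158, limma adjusted p = 0.527). Fras1 read 5.99, 5.68, 6.37, 6.19 and 6.65 in wild-type forelimbs and 5.52, 5.57, 6.15, 6.02 and 6.02 in wild-type hindlimbs. Without Lmx1b, Fras1 read 5.98, 6.31, 6.19, 5.25 and 5.54 in forelimbs and 6.30, 5.87, 5.66, 5.39 and 5.61 in hindlimbs. Knockout forelimbs held both 5.25, the lowest array, and 6.31, and the groups overlapped. The genotype difference of Fras1, -0.21 over both limb types (SE 0.144, unadjusted p = 0.167, limma adjusted p = 0.539), was the largest of the 32 in size. Frem2 read 6.58, 6.12, 6.85, 6.73 and 7.16 in wild-type forelimbs and 6.08, 5.90, 6.63, 6.41 and 6.30 in wild-type hindlimbs. Without Lmx1b, Frem2 read 6.48, 7.16, 6.70, 6.03 and 6.03 in forelimbs and 7.07, 6.17, 6.28, 5.92 and 6.16 in hindlimbs. Wild-type forelimb replicate 5 and knockout forelimb replicate 2 were both at 7.16, the top of the range, and wild-type hindlimb replicate 7 (5.90) was the lowest. Fras1 and Frem2, partners in 1 protein complex, were each other's nearest match among the 32 genes (r = 0.94 over 20 arrays, 0.93 without the 2 farthest). Lama3 and Lamb3, partners in 1 trimer, were not (r = 0.47, 0.35 without the 2 farthest), at mean levels below 5. Lama3 was lower in wild-type hindlimbs by 0.22 (unadjusted p = 0.0384, limma adjusted p = 0.269).

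The last group holds 5 genes of proteolysis, trafficking and signalling. Sfn (14-3-3 sigma) controls keratinocyte growth and differentiation, Rab25 and Ap1m2 sort membrane proteins in polarised epithelia, and St14 (matriptase) and Prss8 (prostasin) form a protease cascade of the epidermal barrier. Sfn read 7.43, 7.64, 8.01, 7.69 and 8.01 in wild-type forelimbs and 7.66, 7.41, 7.84, 7.45 and 7.72 in wild-type hindlimbs. Without Lmx1b, Sfn read 7.61, 8.05, 8.23, 7.46 and 7.69 in forelimbs and 8.60, 7.80, 7.78, 7.52 and 7.39 in hindlimbs. Knockout hindlimb replicate 6 (8.60) was highest, and all 4 groups overlapped. Sfn has 2 probe sets, and these values are from the one with the higher mean (7.75, against 7.17). The other was not fitted by itself, with or without the covariate used below. Sfn was 0.13 higher in the knockout over both limb types (SE 0.128, limma adjusted p = 0.703). With the mean of the other epithelial genes as a covariate the difference was 0.25 (SE 0.0554, adjusted p = 0.0187), the 1 gene of 32 called there, against 2.04% of all genes, and Epcam had 0.23 (adjusted p = 0.0788). Ap1m2, whose promoter held 4 matches to the E-box, followed the other genes closely (r = 0.97) between 5.73 and 6.59, and Rab25, with 2 matches, did too (r = 0.96) between 4.66 and 6.05. Cldn7, also with 2 at the start site shown and none at its other, did not (r = 0.27). Krt14, with none in the last 100 bases, did (r = 0.97). A link between matches and how closely a gene followed the others was not tested. St14 ranged from 5.77 to 6.63 and Prss8 from 4.78 to 5.70. St14 and Prss8, members of 1 cascade, matched with r = 0.67, and for each of them at least 19 other members matched better.

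Genes listed as other epithelial genes moved with limb type in both directions. Of 56 outside the 32, 4 passed in wild type, against 3.26% of all genes. The flippase subunit Tmem30b (0.68, limma adjusted p = 0.00659) and P-cadherin, Cdh3 (0.40, adjusted p = 0.00455), were higher in hindlimbs. Frem1 (-0.55, adjusted p = 0.00845), the Fraser complex partner of Fras1 and Frem2 made by dermal cells, and Itgb6 (-0.46, adjusted p = 0.0251) were lower. In the knockout only Tmem30b passed (0.65, limma adjusted p = 0.0238), against 0.617% of all genes. Within groups, Tmem30b ran against the mean of the 32 genes (r = -0.86) and Cdh3 hardly followed it (0.12). Frem1 and Itgb6 followed it with r of 0.70 and 0.65. All 13 Fraser complex genes and dermal partners had differences below 0 in wild type, and 4 of them passed as lower in hindlimbs, against 3.26% of all genes. These were Frem1, Nid1, Nid2 and Lamb1, the last 3 being basement membrane components made widely in the mesenchyme. Of 12 epithelial repressors and mesenchyme factors, Zeb2 was lower in wild-type hindlimbs (-0.57, limma adjusted p = 0.0437), and none passed for genotype. Of 24 genes of the differentiating layers 0 passed in any of the 6 comparisons, and of 24 ridge and ectoderm signals Bmp2 was higher in the knockout over both limb types (0.36, limma adjusted p = 0.00877), En1 lower in wild-type hindlimbs (-0.33, adjusted p = 0.0356) and Bmp4 lower in knockout hindlimbs (-0.35, adjusted p = 0.0265).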

How the data were processed

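The deposited values are linear array intensities made by the authors with RMA, per the submitters' processing notes; no source used here gives its version, annotation or genome build. RMA scales arrays together, which hides differences in total RNA. Of 35512 probe sets, 21789 named 1 gene, 1621 several and 12101 none, and 1 had no value. The highest-mean probe set stood for each of 19936 genes, with no filter. Intensities were turned into log2 with no pseudocount and fitted with limma 3.58.1 (R 4.3.3) as 4 group means over 20 arrays, with 6 contrasts and Benjamini-Hochberg adjustment. The fit was tested on simulated data. Array medians ran from 28.6 to 31.8, and precision is limited by the 5 arrays a group. Replicate numbers were not used to pair arrays in the main fit. Across groups, 30 pairs of arrays with the same side and number deviated together with r of -0.31 to 0.40 (median 0.04). For other pairs the median was -0.01. Many of the 30 pairs join wild type to knockout, so they cannot show whether limbs of a genotype share an embryo. The 32 genes and the other lists were chosen with earlier results of these data known. All 32 are named. Values on every array are given for members called, for the highest-mean member of each of 7 roles, for the 3 widest, the 3 narrowest and the 3 with the smallest genotype p. Alternatives were scaling, a level filter, probe set choice, the prior, array weights, covariates, a replicate block, fewer samples, the threshold and each array left out. Promoters are RefSeq's, build GRCm38.p6.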

Additional observations from a re-analysis of the deposited data

Results flagged for a closer look

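In 7 of 132 groups of 5 arrays (32 genes and their mean, in 4 groups each) the highest or lowest array stood apart from the next by more than Dixon's 95% criterion, which chance gives in about 1 group of 20. Of these, 4 were knockout hindlimb replicate 6 at the top: Trp63 at 7.30 (next 6.63), Cldn4 at 8.14 (next 7.33), Itgb4 at 5.82 (next 5.39) and St14 at 6.63 (next 5.93). The other 3 were all Krt18, high on wild-type forelimb replicate 5 at 6.06 (next 5.74), low on wild-type hindlimb replicate 6 at 5.78 (next 6.002) and low on knockout forelimb replicate 5 at 5.51 (next 5.75).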

How the results depend on the processing

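No member was called for genotype in 91 of 92 alternatives over the 4 genotype tests. The exception, the covariate of the other epithelial genes, called 1 over both limb types (Sfn). For limb type in wild type, where the count was 1, the Y-linked covariate gave 0, the fit of only the compared arrays 3 (Krt15, Krt5 and Cldn7), a threshold of adjusted p under 0.1 gave 2, and leaving out 1 array gave 0 to 1. For limb type in the knockout, where the count was 0, the level filter, the intensity trend, array weights, the replicate block and the threshold of 0.1 each gave 1 (Krt15), the epithelial covariate gave 4, and leaving out 1 array gave 0 to 1. The cause was not tested. The replicate block, in which arrays share a number but no stated source, gave Krt15 there an adjusted p of 0.0495 and changed no other call. The difference in the mean of the 32 genes moved by less than 1 SD (0.261) in all 150 alternatives. The differences were themselves smaller than that SD, so this measure cannot show whether they held. Leaving out 1 array turned the sign of the small genotype differences in forelimbs and in hindlimbs. The fit of only the compared arrays does not apply to the test over both limb types or to the test of the difference between limb types. Levels below 5 (Ovol1, Lamb3 and Lama3) limit what those genes can show.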
